A study of Rattus norvegicus with 30 samples.

Results

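Acute phase proteins are plasma proteins that the liver makes in larger or smaller amounts during inflammation. Their expression was described here in rat hepatocytes treated with methapyrilene, through 10 genes: the secreted proteins Crp, Hp, Orm1, A2m, Lbp and C3, the metalloreductase gene Steap4, the decoy receptor gene Il1r2, and the signalling genes Socs3 and Stat3. The genes were chosen by name, with earlier results of these data known. For each, probe sets annotated to that gene alone were taken, and of these the one with the highest mean log2 signal over all 30 arrays. All 10 genes were on the array, with 11 probe sets (Stat3 had 2), and all 10 were among the 10222 genes tested of 14217 with a probe set of a single symbol. A gene was tested when at least 5 arrays exceeded their own median. Socs3 met this with 8 of 30 arrays and the other genes with all 30.

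In the acute phase response, interleukin-6 binds its receptor Il6r with the shared subunit gp130 (Il6st), whose Janus kinases activate the transcription factor STAT3, while interleukin-1 and bacterial lipopolysaccharide act through NF-kB. STAT3, NF-kB and C/EBP factors then raise transcription of the plasma protein genes, and the STAT3 target Socs3 ends the signal by blocking gp130. In the rat, A2m and Orm1 are strong responders, whereas Crp circulates at a high level without inflammation. Glucocorticoids are needed for a full response, and hepatocyte media usually contain them.

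The cells were frozen primary hepatocytes of male Sprague Dawley rats, thawed and cultured on collagen under a Matrigel overlay. Methapyrilene is an antihistamine that was withdrawn because it caused liver tumours in rats. Wells were dosed on day 3 of culture and harvested after 24 h or 48 h, which gave 6 groups of 5 wells: DMSO vehicle, 3 uM methapyrilene and 100 uM methapyrilene at each time. The vehicle wells are labelled 1% DMSO, but the protocol gives 1% for the concentrated dosing solutions, so the final share is uncertain. No cytokine or lipopolysaccharide is listed among the treatments, and all groups shared the cell source, the overlay and the vehicle. The labels describe the wells as independent cultures and name no animals, so p-values measure the spread between wells (n = 5 in each group). A well of cultured cells lacks the plasma, immune and endocrine signals that a liver receives.

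Array medians lay between 362 and 471 after the deposited scaling. Replicates 1, 2 and 3 of 3 uM at 24 h stood apart in RNA quality. Beta-actin has control probe sets at both ends of its transcript, and the 3' signal divided by the 5' signal, which grows as RNA is degraded or labelled incompletely, was 3.93, 5.10 and 5.30 there and between 2.34 and 3.43 on the other 27 arrays. The comparisons with 3 uM at 24 h were therefore also fitted with replicates 4 and 5 alone and with the ratio as a covariate. Of 12 hepatocyte markers, 11 were on the array and all 11 were tested. Their summed signal was 438433 to 534241 in DMSO at 24 h and 436379 to 508735 in DMSO at 48 h. Albumin had a mean signal of 85971 ± 11122 (SD, n = 5) and 86647 ± 6374 in these groups. Of 15 leukocyte markers on the array, Ptprc, Cd163, Adgre1, Itgam, Cd3e and Laptm5 fell below the filter and 9 were tested. Among these, Cd68 and Lyz2 exceeded the array median on all 30 arrays. So did the stellate cell and fibroblast markers Acta2 and Col3a1 and the endothelial markers Kdr and Egfl7. However, 6 of 8 endothelial markers on the array (Stab1, Stab2, Lyve1, Pecam1, Tek and Vwf) fell below the filter. The same held for 5 of 11 stellate cell and fibroblast markers (Lrat, Col1a2, Pdgfrb, Tagln and Dcn). In bulk RNA, fewer cells of a type and less RNA per cell cannot be told apart.

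Proximal promoters are shown for the 3 genes whose RNA was lower at 100 uM at both times, Crp, C3 and Steap4, and for Orm1, which was not called in any comparison. RefSeq promoters of build GRCr8 were held for 6 of the 10 genes. Hp, A2m, Lbp and Il1r2 were not matched. Each sequence is the 250 bases before the gene's start, 5′ to 3′ on the gene's strand: chr13:87693812-87694061 (plus) for Crp, chr9:2201340-2201589 (minus) for C3, chr4:27054770-27055019 (minus) for Steap4 and chr5:81788259-81788508 (plus) for Orm1. Capitals mark matches on either strand to the STAT site TTCNNNGAA, the IL-6 response hexamer CTGGGA, the C/EBP site TTNNGNAA or the NF-kB consensus.
Crp: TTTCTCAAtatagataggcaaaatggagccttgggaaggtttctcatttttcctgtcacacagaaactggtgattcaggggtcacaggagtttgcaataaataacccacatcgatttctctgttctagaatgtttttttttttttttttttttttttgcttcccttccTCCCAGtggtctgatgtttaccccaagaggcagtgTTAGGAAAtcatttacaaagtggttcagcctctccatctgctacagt
C3: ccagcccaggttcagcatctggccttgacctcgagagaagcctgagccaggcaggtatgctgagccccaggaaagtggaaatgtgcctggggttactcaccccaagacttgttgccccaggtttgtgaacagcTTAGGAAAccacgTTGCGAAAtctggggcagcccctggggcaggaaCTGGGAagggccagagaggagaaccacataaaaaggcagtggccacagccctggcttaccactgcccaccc
Steap4: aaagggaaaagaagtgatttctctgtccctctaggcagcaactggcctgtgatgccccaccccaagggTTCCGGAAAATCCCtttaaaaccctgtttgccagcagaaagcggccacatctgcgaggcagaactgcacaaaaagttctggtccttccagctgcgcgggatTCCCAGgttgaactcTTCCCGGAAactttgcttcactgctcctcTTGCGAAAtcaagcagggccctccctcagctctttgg
Orm1: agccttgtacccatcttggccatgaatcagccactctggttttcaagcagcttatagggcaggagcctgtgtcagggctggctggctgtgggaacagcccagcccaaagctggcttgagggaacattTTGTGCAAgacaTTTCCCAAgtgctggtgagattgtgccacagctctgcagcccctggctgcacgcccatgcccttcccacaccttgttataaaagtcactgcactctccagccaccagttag
The Steap4 window held all 4 motifs, with the STAT match at -66 to -58 from the start, the hexamer at -81 to -76, C/EBP matches at -182 to -175 and -37 to -30, and an NF-kB match at -178 to -169 that overlaps the first C/EBP match. Crp held the hexamer at -82 to -77 and C3 at -71 to -66, and each also had 2 C/EBP matches. The Orm1 window held 2 C/EBP matches, at -123 to -116 and -111 to -104, and no match to the other motifs. Of the 6 windows, Socs3 had an NF-kB match at -161 to -152 and Stat3 had no match. Such matches are common. Among 33469 promoter windows of the same length, 7.67% held the STAT site, 25.7% the hexamer, 37.2% the C/EBP site and 6.33% the NF-kB consensus. A match describes the letters in the window and says nothing of binding in these cells.

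At 100 uM the 10 genes split, and most of the changes were falls. Crp, C3 and Steap4 were lower than in DMSO at both times, and Il1r2 was higher at both times. Hp, Orm1, A2m, Lbp, Socs3 and Stat3 did not pass the test (limma, Benjamini-Hochberg adjusted p under 0.05) at either time. The 4 called genes of 10 stand beside 35.7% of all tested genes called at 24 h and 33.4% at 48 h, so the share of genes called was near the background. By direction, 3 of 10 were lower where 15.8% of all genes were lower at 24 h and 14.5% at 48 h, and 1 of 10 was higher where 19.8% and 18.9% were higher. The genes and the lists below were chosen with earlier results of these data known. Their counts beside the shares of all genes are therefore a description and not a test. Among all called genes, 55.6% were higher at 24 h and 56.6% at 48 h, and 47.5% and 44.6% with each array centred on its median. The median log2 fold change of the 10 genes was -0.05 at 24 h and -0.10 at 48 h, and over all tested genes it was 0.04 and 0.05. All 5 treated wells lay on one side of all 5 DMSO wells for 3 genes at 24 h (26.4% of all genes) and for 5 at 48 h (28% of all genes).

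**Figure D1:**
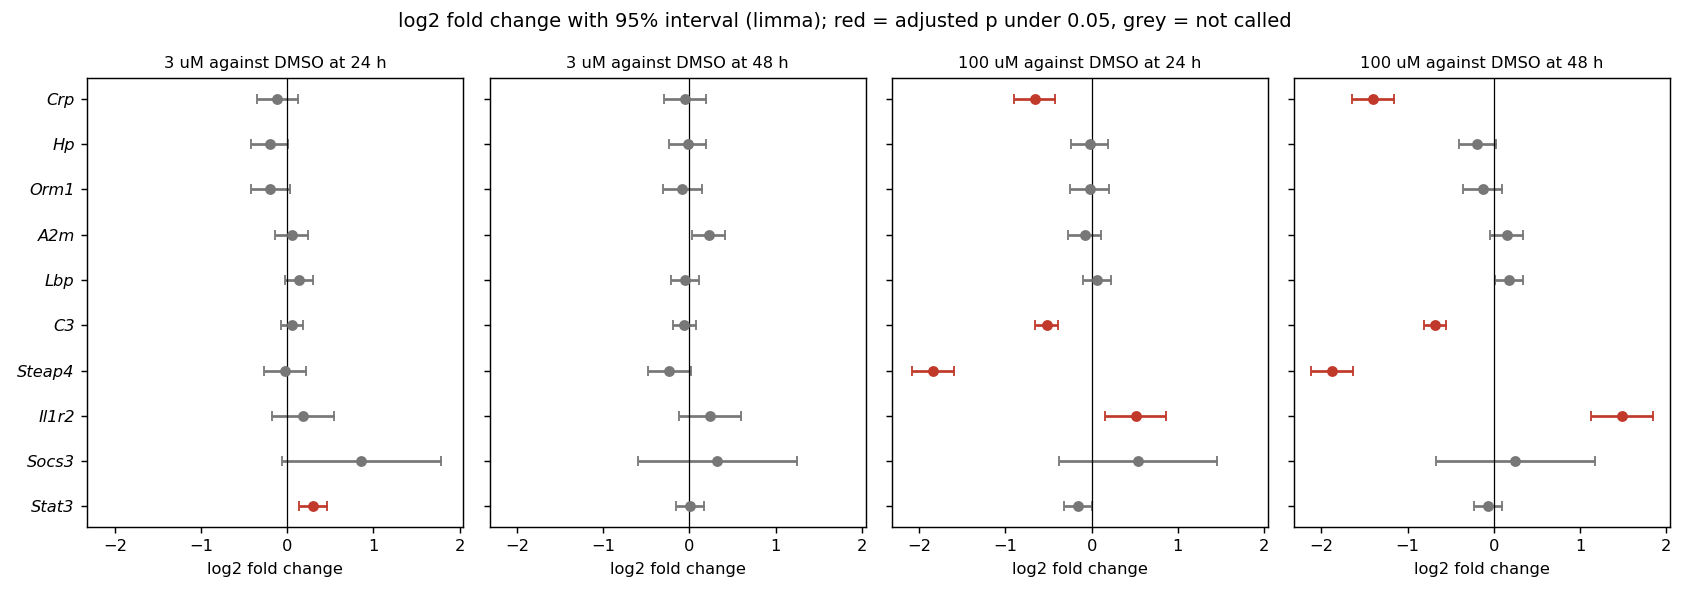
The log2 fold change of each of the 10 genes against DMSO of the same time (x axis) with its 95% interval from limma, in 4 panels by dose and time, red where the adjusted p was under 0.05. Steap4 at 100 uM lies farthest from 0 at both times, and in the 3 uM panels Stat3 at 24 h alone is red.

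Crp, the gene of C-reactive protein, a pentraxin that binds phosphocholine on bacteria and dying cells, fell at 100 uM. Its signal in DMSO at 24 h was 17682, 16045, 20922, 23440 and 17664 in the 5 wells, against 11874, 14028, 12872, 11860 and 9793 at 100 uM. In DMSO at 48 h the wells gave 24816, 22282, 22644, 24943 and 24991, against 9697, 10974, 8592, 8708 and 7653 at 100 uM. The groups did not overlap at either time, and the lowest DMSO well at 48 h was above the highest treated well by a wide margin. Its log2 fold change was -0.66 ± 0.12 (SE) at 24 h (adjusted p = 3.27e-05, 1.58-fold lower) and -1.40 ± 0.12 at 48 h (adjusted p = 1.62e-11, 2.64-fold lower). The fall was larger at 48 h, with a difference between the log2 fold changes of -0.74 ± 0.17 (adjusted p = 0.0132). With each array centred on its median this difference had an adjusted p of 0.0742. The mean in DMSO was 19151 ± 2981 (SD) at 24 h and 23935 ± 1351 at 48 h, which did not pass the test (0.33, adjusted p = 0.114), and at 100 uM it was 12086 ± 1561 and 9125 ± 1262. The rise in DMSO did pass with array weights (adjusted p = 0.0414) and with only the groups compared (adjusted p = 0.0293). It also passed without replicate 4 of DMSO at 24 h (adjusted p = 0.0490).

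At 3 uM the Crp signal was 15973, 15649, 15172, 24939 and 17478 at 24 h and 28178, 25736, 21564, 21257 and 19792 at 48 h. These wells overlapped the DMSO wells at both times. The log2 fold changes were -0.11 (95% interval -0.35 to 0.13) at 24 h and -0.05 (-0.29 to 0.19) at 48 h. Between the doses Crp was lower at 100 uM than at 3 uM by a log2 fold change of -0.55 at 24 h (adjusted p = 0.000351) and -1.35 at 48 h (adjusted p = 5.56e-11).

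C3, the central complement component on which the classical, lectin and alternative pathways meet, also fell at 100 uM. In DMSO at 24 h its signal was 46648, 42630, 45180, 39398 and 42004, against 29366, 29801, 31254, 28814 and 30810 at 100 uM. At 48 h it was 42653, 36592, 35321, 33278 and 33997 in DMSO, against 21547, 22248, 21031, 25915 and 22267. The treated wells were below every DMSO well at both times and lay close together at 24 h. On the log2 scale the change was -0.52 ± 0.064 (SE) at 24 h (adjusted p = 4.63e-08) and -0.68 ± 0.064 at 48 h (adjusted p = 1.53e-10), with no call for the difference between the times (-0.16 ± 0.090, adjusted p = 0.522). C3 also fell with time in the vehicle, by a log2 fold change of -0.25 (adjusted p = 0.0154), where 4.48% of all genes differed between 48 h and 24 h in DMSO. That call was lost without replicate 1 of DMSO at 24 h (adjusted p = 0.0534) and without replicates 4 or 5 at 48 h (adjusted p = 0.0620 and 0.0572). It was also lost with quantile normalization (-0.20, adjusted p = 0.174) and with each array centred on its median (-0.26, adjusted p = 0.122). At 3 uM it ranged from 40863 to 47692 at 24 h and from 32313 to 37970 at 48 h, within or across the range of DMSO.

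The other complement genes that were called were lower, like C3. Of 24 others tested, 13 were lower and 0 higher at 24 h (15.8% and 19.8% of all genes). At 48 h 14 were lower and 0 higher (14.5% and 18.9% of all genes). Their median log2 fold change was -0.27 at 24 h and -0.40 at 48 h, against 0.04 and 0.05 over all genes. C5, which the C3-containing convertase cleaves, had log2 fold changes of -0.96 and -1.44 (adjusted p = 9.28e-09 and 1.05e-12). The lectin pathway genes Mbl2 and Mbl1 had -1.22 and -0.79 at 24 h and -1.13 and -0.83 at 48 h. C4bpa, whose product inhibits the classical pathway, fell by 0.77 and 1.27 on the log2 scale. C8b, of the membrane attack complex, fell by 0.28 at 24 h and by 0.75 at 48 h. The C1q genes C1qa, C1qb and C1qc, which liver macrophages rather than hepatocytes make, had log2 fold changes of 0.46, 0.50 and 0.26 at 48 h and did not pass the test. These genes exceeded the array median on 18, 6 and 10 of 30 arrays.

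Hp encodes haptoglobin, which binds free haemoglobin, and Orm1 encodes alpha-1-acid glycoprotein, which binds basic drugs. Neither was called in any of the 9 comparisons as fitted. Hp was 89264, 78167, 86522, 75455 and 98285 in DMSO at 24 h and 87641, 98197, 75522, 81376 and 77646 at 100 uM. At 48 h it was 87748, 83531, 83674, 74193 and 89494 in DMSO and 76952, 75007, 72490, 72306 and 69330 at 100 uM. The wells overlapped at both times, although at 48 h 4 of 5 DMSO wells were above all treated wells. The log2 fold change at 48 h was -0.19 (95% interval -0.40 to 0.02, adjusted p = 0.166), so a fall of 1.14-fold was estimated and not called. It did pass with only the groups compared (adjusted p = 0.00352) and with quantile normalization (-0.09, adjusted p = 0.0223).

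Orm1 gave 80356, 70795, 78173, 67297 and 87755 in DMSO at 24 h, and 82615, 94743, 63683, 71474 and 68268 at 100 uM. At 48 h the vehicle wells gave 80378, 74846, 75451, 68162 and 80256, and the 100 uM wells 74041, 70019, 70670, 69232 and 62936. The ranges overlapped at both times. The log2 fold changes were -0.02 (95% interval -0.25 to 0.20) and -0.13 (-0.35 to 0.10). A change in array signal as large as that of Crp at 48 h lies outside both intervals. Orm1 ranked 17 of 10222 genes by mean log2 signal, and saturation, which would shrink differences in RNA, was not tested. At 3 uM and 24 h, Hp was 71214, 56339 and 65830 in replicates 1, 2 and 3 against 83079 and 100128 in replicates 4 and 5, and Orm1 was 64176, 50771 and 61940 against 73768 and 88655. The lower wells are those with the high beta-actin ratio. Hp and Orm1 were not called there (-0.21 and -0.20, adjusted p = 0.244 and 0.294), but without replicate 5 they were called lower (-0.32 and -0.30, adjusted p = 0.0212 and 0.0460). With replicates 4 and 5 alone the direction turned, and the log2 fold changes were 0.10 and 0.08 (adjusted p = 0.838 and 0.904). With the ratio as a covariate they were -0.04 and -0.05 (adjusted p = 0.974 and 0.971). At 48 h and 3 uM, Hp ranged from 69769 to 93924 and Orm1 from 60904 to 86174.

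Hp and Orm1 moved together from well to well. After each group's mean was removed, their log2 signals correlated with Pearson r = 0.963 and Spearman rho = 0.958 over the 30 arrays. The permutation p was 1e-05 for both, the smallest that 100000 permutations can give, and the Benjamini-Hochberg adjusted values over 45 pairs of the 10 genes were 0.000225 and 0.00045. Without the 2 arrays farthest from the median of Hp, r was 0.946. It was 0.952 over the 27 arrays left without 3 uM at 24 h replicates 1, 2 and 3, and 0.967 when means over the runs of 6 array numbers were removed as well. The 3 genes most like Hp over the 30 arrays were Gc, Apoe and Gstm1, with r of 0.971, 0.961 and 0.960, and those most like Orm1 were COX1, Gc and Alb, with 0.968, 0.961 and 0.955. After group means were removed, r with Hp was 0.977, 0.956 and 0.956, and r with Orm1 was 0.967, 0.966 and 0.957. The likeness of Hp and Orm1 to each other, at 0.963, was thus not particular to this pair. Gc, the vitamin D binding protein, and albumin are negative acute phase proteins, whose synthesis falls in inflammation. COX1, a mitochondrial subunit of cytochrome oxidase, the apolipoprotein gene Apoe and the glutathione transferase gene Gstm1 are in none of the gene lists used here. The probe sets of all these genes are among the brightest on the array: by mean log2 signal, of 10222 genes Gc ranked 1, Gstm1 ranked 3, COX1 ranked 4, Alb ranked 6, Hp ranked 7, Orm1 ranked 17 and Apoe ranked 51. Group means of Gc ran from 88874 to 100932 and those of Apoe from 56422 to 62242. The part of signal brightness in these correlations was not tested.

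**Figure D2:**
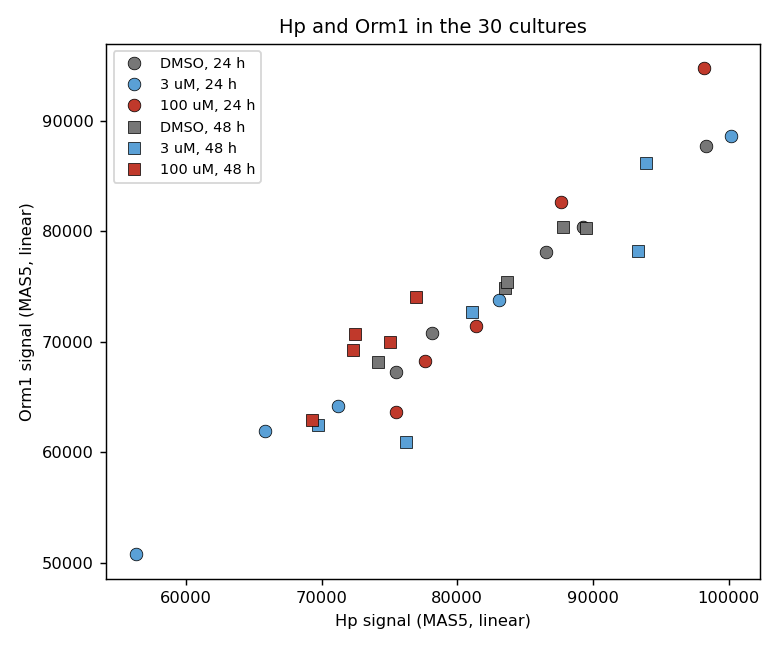
MAS5 signal of Orm1 (y axis) against that of Hp (x axis) in the 30 cultures, on linear axes that do not start at 0, coloured by dose with circles for 24 h and squares for 48 h. The points of all 6 groups follow 1 band, and the lowest point is replicate 2 of 3 uM at 24 h (56339 for Hp and 50771 for Orm1).

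A2m, the gene of the protease inhibitor alpha-2-macroglobulin, fell with time in the vehicle and was not called for either dose. It was 55303, 48607, 54920, 44131 and 55019 in DMSO at 24 h and 35044, 43399, 39875, 34931 and 39651 in DMSO at 48 h, and these groups did not overlap. The log2 fold change over time was -0.42 ± 0.093 (adjusted p = 0.00445, 1.34-fold lower). At 100 uM it was 48354, 45851, 47274, 47219 and 54440 at 24 h and 42681, 39125, 40738, 45416 and 45437 at 48 h. Both ranges overlapped those of DMSO at the same time, with log2 fold changes of -0.08 (95% interval -0.27 to 0.11) and 0.15 (-0.04 to 0.34). At 3 uM the wells ranged from 45184 to 70444 at 24 h and from 36266 to 53055 at 48 h. The log2 fold change of 0.22 at 3 uM and 48 h had an unadjusted p of 0.0218 and an adjusted p of 0.953. Between the doses at 24 h the log2 fold change at 100 uM was -0.14 with no call (adjusted p = 0.270). A2m was called lower in that comparison with quantile normalization (-0.27, adjusted p = 0.00619) and with replicates 4 and 5 of 3 uM alone (-0.31, adjusted p = 0.0426).

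Lbp, whose product transfers lipopolysaccharide to Cd14, was highest at 100 uM and 48 h. There it was 11231, 11540, 11077, 12148 and 11674, against 10880, 11010, 10170, 10289 and 8723 in DMSO and 9150, 9581, 10293, 9983 and 10219 at 3 uM. Every 100 uM well was above every DMSO and every 3 uM well at that time, by a small margin. Against DMSO the log2 fold change was 0.18 ± 0.079 (95% interval 0.02 to 0.34) with an adjusted p of 0.0810, and it was 0.23 against 3 uM (adjusted p = 0.0275). The first did pass when the fit held the compared groups alone (adjusted p = 0.0216), with array weights (0.0226) and with quantile normalization (0.0471). The second was lost when replicate 1 or 2 of 3 uM or replicate 4 or 5 of 100 uM was left out (adjusted p from 0.0507 to 0.0765). Lbp rose with time in DMSO by 0.26 (adjusted p = 0.0482), from 7845, 7473, 9935, 9121 and 8237 at 24 h, but that call was lost when replicate 1, 2 or 5 at 24 h or replicate 1, 2, 3 or 4 at 48 h was left out (adjusted p from 0.0850 to 0.161). At 24 h the 3 uM wells ranged from 7430 to 11094 and the 100 uM wells from 8414 to 9435, across the DMSO range.

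The lipopolysaccharide receptor genes around Lbp moved in both directions. Cd14 had a mean signal of 11823 ± 847 (SD) in DMSO and 7365 ± 498 at 100 uM at 24 h, and 10543 ± 1148 and 5130 ± 769 at 48 h. Its log2 fold change was -0.68 at 24 h (adjusted p = 6.46e-07) and -1.05 at 48 h (adjusted p = 1.05e-10). Ly96, the MD-2 subunit that holds lipopolysaccharide on Tlr4, rose from 2429 ± 513 to 4069 ± 399 at 24 h and from 2297 ± 135 to 4362 ± 227 at 48 h. Its log2 fold changes were 0.76 and 0.93 (adjusted p = 2.43e-07 and 5.88e-09). Tlr4 itself exceeded the array median on 0 of 30 arrays and was not tested.

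**Figure D3:**
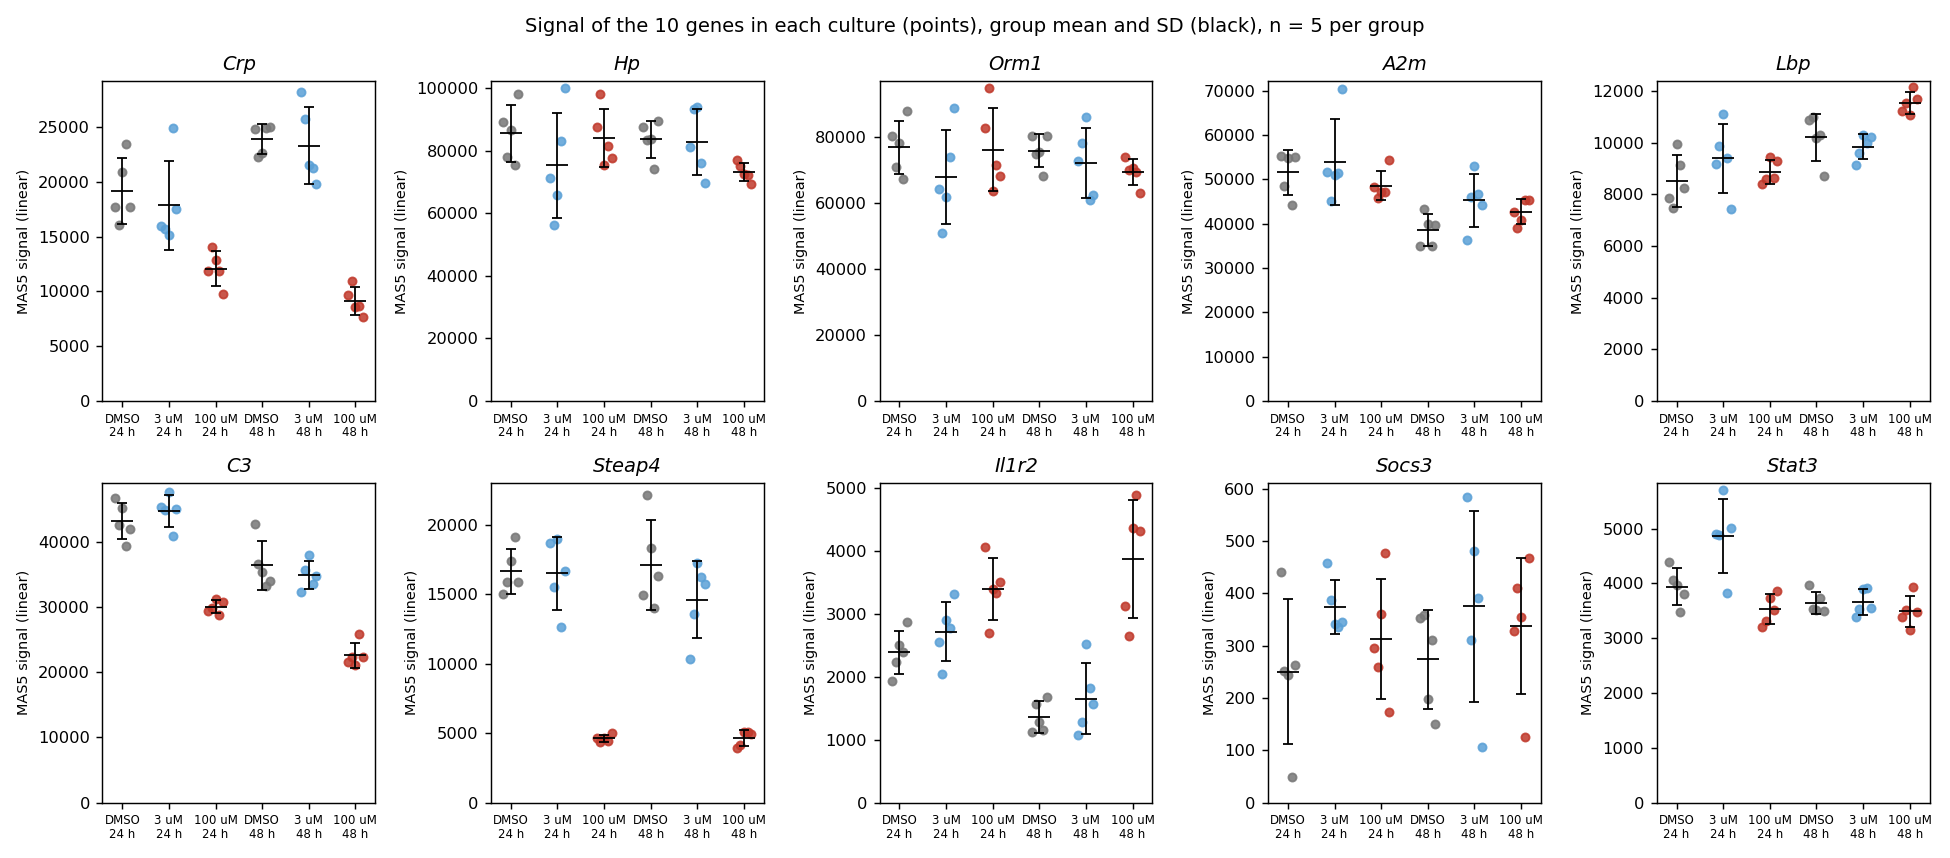
MAS5 signal on a linear scale (y axis, from 0, a separate scale for each gene) of the 10 genes in the 6 groups, with a point for each culture and black bars for the mean and SD of 5. Steap4 at 100 uM lies between 3949 and 5111 in all 10 wells, below every other well, and Il1r2 in DMSO and 3 uM is lower at 48 h than at 24 h while at 100 uM it is not.

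In the list of other positive acute phase genes, whose products are taken to rise in inflammation, falls also outnumbered rises at 100 uM. Whether each listed gene rises in rat inflammation was not tested here, Pzp and Mug1 included. Of 27 tested besides the 7 already counted among the 10 genes, 13 were lower and 1 higher at 24 h (15.8% and 19.8% of all genes). At 48 h 17 were lower and 3 higher (14.5% and 18.9% of all genes). Their median log2 fold change was -0.28 and -0.26. The list shares the mannose-binding lectin, C4bp, Serping1 and C9 genes with the complement list. Fga and Fgb, the fibrinogen alpha and beta chains, had -0.44 and -0.35 at 24 h, both called, and -0.26 (called) and -0.19 (not called) at 48 h, and Fgg had -0.15 and -0.11 and was not called. Cp, the copper oxidase ceruloplasmin, had -0.48 and -0.79, and Pzp, a relative of A2m, had -0.53 at 24 h and a larger fall at 48 h (difference -0.48, adjusted p = 0.0124), all called. Those that rose at 48 h were Hamp, Serpina3c and Timp1, and at 24 h Hamp. Hamp encodes hepcidin, which blocks iron export and is induced by IL-6 and by bone morphogenetic proteins. Its signal rose from 2534 ± 118 (SD) to 6076 ± 1381 at 24 h and from 1442 ± 292 to 8646 ± 1855 at 48 h, with log2 fold changes of 1.24 and 2.58 (adjusted p = 1.5e-08 and 4.16e-16). Serpina3c, of a serine protease inhibitor family, had a log2 fold change of 1.11 at 48 h, and Timp1, a metalloproteinase inhibitor, 0.58. The near relative Serpina3n had -0.15 at 48 h, called lower, and probe sets of such families may share targets.

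Negative acute phase genes, whose products decline in inflammation, also had more falls than rises. Of 17 tested, 6 were lower and 0 higher at 24 h (15.8% and 19.8% of all genes). At 48 h 9 were lower and 1 higher (14.5% and 18.9% of all genes). The list medians at 24 h and 48 h were -0.05 and -0.26. Hrg, a histidine-rich plasma glycoprotein, had the largest fall of the list at 48 h, with a log2 fold change of -1.51 (adjusted p = 7.37e-17) after -0.64 at 24 h. Serpina7, the thyroxine-binding globulin, had -1.32 and -1.20. It exceeded the array median on 17 of 30 arrays. Its mean signal at 100 uM, 221 ± 56 (SD) at 24 h and 223 ± 48 at 48 h, was below the lowest array median of 362. Itih1 and Itih2, the hyaluronan-linked inter-alpha-inhibitor chains, fell at both times by between 0.44 and 0.49. Alb (0.05 and -0.15) and Ttr (-0.05 and -0.11), the classical members, were not called. Serpina6, the corticosteroid-binding globulin, was the gene that rose, by 0.88 at 48 h.

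**Figure D4:**
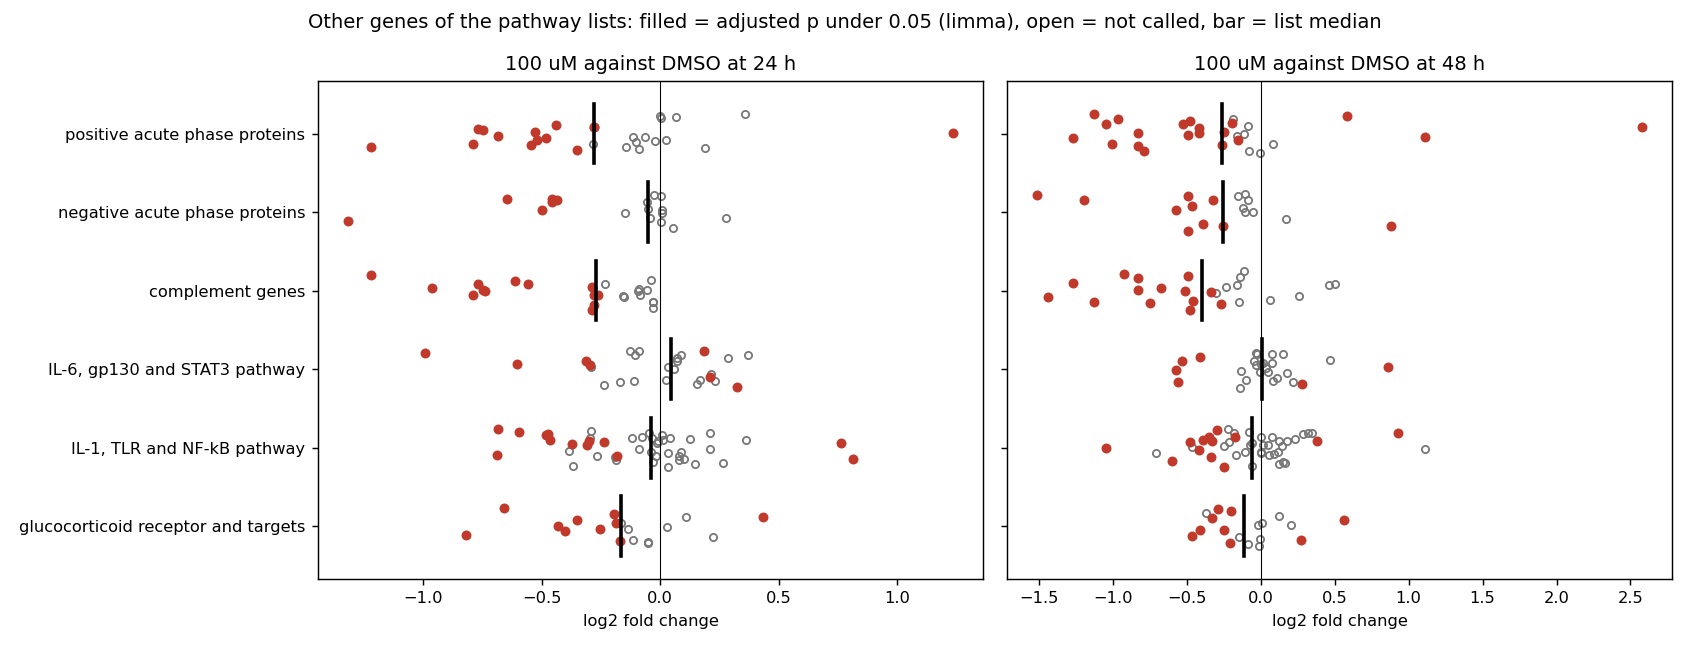
Log2 fold changes at 100 uM (x axis) of the other genes of 6 pathway lists (rows) at 24 h and 48 h, filled red where called by limma at adjusted p under 0.05 and open where not, with a bar at the list's median. In the complement row the filled points lie left of 0 at both times, and Hamp, at 1.24 and 2.58, is the farthest point to the right in the positive acute phase row.

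Steap4 encodes a membrane reductase of iron and copper that inflammation raises in several tissues, and it had the largest change of the 10 genes. In DMSO it was 15010, 15876, 17373, 19142 and 15924 at 24 h, against 4682, 4374, 4639, 4453 and 5011 at 100 uM. At 48 h the values were 14932, 22129, 18303, 13987 and 16321 in DMSO and 3949, 4114, 5075, 5111 and 4934 at 100 uM. The highest treated well was below the lowest DMSO well at both times. This is a log2 fold change of -1.84 ± 0.12 (adjusted p = 4.31e-14, 3.59-fold lower) at 24 h and -1.88 ± 0.12 (adjusted p = 2.16e-14, 3.67-fold lower) at 48 h. Ordered by log2 fold change among all 10222 genes it was the 19th lowest at 24 h and the 21st lowest at 48 h. The difference between the times was -0.03 (95% interval -0.38 to 0.31). At 3 uM it was 18699, 15499, 18967, 12627 and 16716 at 24 h and 10316, 13567, 17249, 16248 and 15735 at 48 h, which overlapped DMSO, with log2 fold changes of -0.02 (-0.27 to 0.22) and -0.23 (-0.48 to 0.01).

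No other STEAP gene was called lower. Steap1 rose, from 470 ± 50 (SD) to 719 ± 110 at 24 h and from 445 ± 81 to 662 ± 96 at 48 h (log2 fold changes 0.61 and 0.58, adjusted p = 0.00284 and 0.00423). Steap2 had 0.59 and 0.39 and Steap3 0.22 and 0.17, with no call. Steap2 exceeded the array median on 6 of 30 arrays. The genes most like Steap4 over the 30 arrays were Aldh6a1, Synrg and Cdh2, with r of 0.960, 0.954 and 0.954. Once group means were removed their r was -0.26, -0.02 and 0.45, so for Aldh6a1 and Synrg the likeness lay between groups rather than between wells of a group.

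Il1r2, the gene of the decoy receptor that binds interleukin-1 without signalling, rose at 100 uM. At 24 h it was 1932, 2233, 2507, 2395 and 2864 in DMSO and 4060, 2687, 3398, 3333 and 3496 at 100 uM, so 4 of 5 treated wells were above every DMSO well. At 48 h it was 1123, 1565, 1284, 1158 and 1684 in DMSO and 3121, 2645, 4362, 4887 and 4306 at 100 uM, without overlap. Il1r2 had a log2 fold change of 0.51 ± 0.18 at 24 h (adjusted p = 0.0229, 1.42-fold) and 1.49 ± 0.18 at 48 h (adjusted p = 3.03e-08, 2.80-fold), the 20th highest of all genes at 48 h. The call at 24 h was lost without replicate 1 of DMSO (adjusted p = 0.0730) and without replicate 1 of 100 uM (adjusted p = 0.0683).

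The larger rise of Il1r2 at 48 h went with a fall in the vehicle. In DMSO it was lower at 48 h than at 24 h in every well, with a log2 fold change of -0.82 ± 0.18 (adjusted p = 0.00327), and its mean at 100 uM was 3395 ± 489 (SD) at 24 h and 3864 ± 939 at 48 h. The log2 fold changes at the 2 times differed by 0.98 ± 0.25 (adjusted p = 0.0342). Of all genes, 1.65% were called for this difference, 0.616% upward like Il1r2 and 1.04% downward like Crp. The call for Il1r2 was lost at 0.0508 with each array centred on its median and at 0.0744 with eBayes without a trend. It was also lost when any 1 of 12 arrays was left out (adjusted p from 0.0501 to 0.0828): replicates 3, 4 and 5 of DMSO and 2, 3 and 4 of 100 uM at 24 h, and replicates 1, 3 and 4 of DMSO and 3, 4 and 5 of 100 uM at 48 h. At 3 uM it was 2542, 2036, 2907, 2766 and 3311 at 24 h and 1066, 1286, 2521, 1822 and 1568 at 48 h, overlapping DMSO, with log2 fold changes of 0.18 (95% interval -0.18 to 0.54) and 0.23 (-0.13 to 0.59). Between doses at 48 h it was higher at 100 uM by 1.25 (adjusted p = 1.03e-06).

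Il1r2 is also made by neutrophils and macrophages. Cd68, a lysosomal marker of macrophages that other cells make too, rose at 100 uM with log2 fold changes of 0.86 and 1.65 (adjusted p = 7.33e-07 and 7.1e-13). It was 1 of 9 tested leukocyte markers that rose, and 1, Lyz2, fell (-0.29 and -0.21). Csf1r had 0.39 and -0.07 with no call, and 6 of the 15 markers on the array were below the filter. The summed signal of the 15 was 11305 to 13528 in DMSO and 11388 to 12518 at 100 uM at 24 h, and 10571 to 11460 and 11077 to 12996 at 48 h. None is at 0, since MAS5 gives every probe set a signal. The part of such cells in the Il1r2 result was not tested.

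The signalling receptor for interleukin-1 moved the other way. Il1r1 was 3329 ± 125 (SD) in DMSO and 2420 ± 211 at 100 uM at 24 h, and 2795 ± 212 and 2350 ± 66 at 48 h. Its log2 fold change was -0.46 (adjusted p = 8.33e-05) and -0.25 (adjusted p = 0.0294), while the accessory chain Il1rap had 0.03 and 0.09 and was not called. Sigirr, an inhibitory member of the receptor family, had -0.47 and -0.48, and the receptor kinase Irak1 had -0.30 and -0.39, all called. Irak3, the kinase relative that damps signalling, rose by 0.82 at 24 h and 0.38 at 48 h (adjusted p = 9.01e-08 and 0.0041). At 100 uM, then, RNA for a decoy receptor and for an inhibitory kinase was higher, RNA for the signalling receptor and Irak1 lower, and Sigirr, also inhibitory, lower as well.

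**Figure D5:**
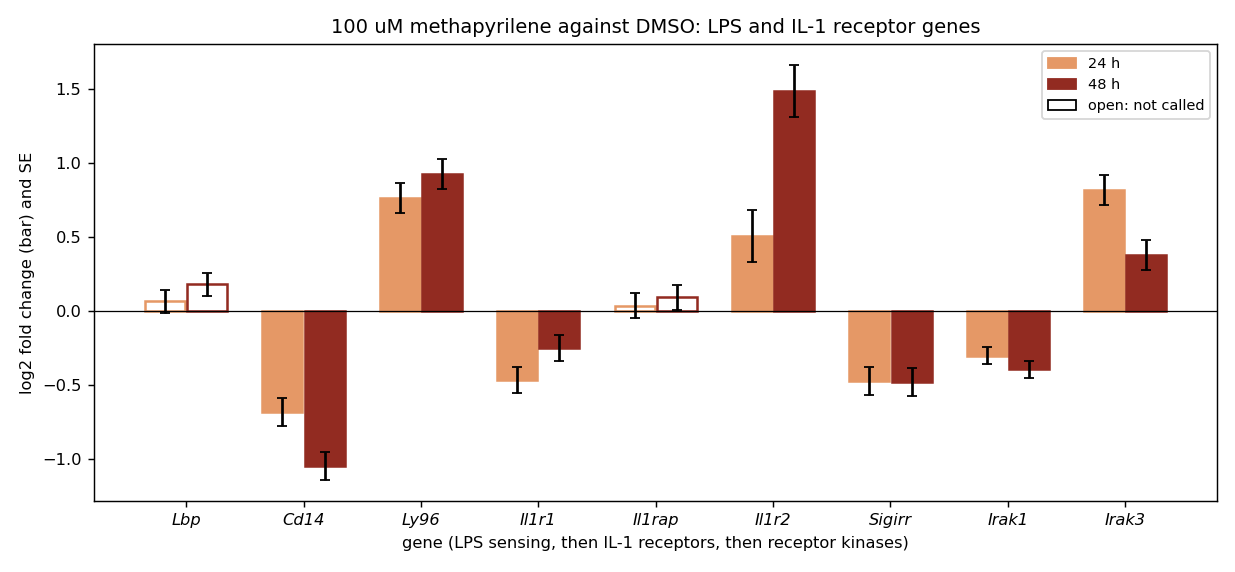
Log2 fold change at 100 uM against DMSO (bars, with SE) of genes for lipopolysaccharide sensing, interleukin-1 receptors and their kinases, at 24 h and 48 h, with open bars where the adjusted p was 0.05 or more. Il1r2, Ly96 and Irak3 lie above 0 at both times, Cd14, Il1r1, Sigirr and Irak1 below, and Lbp and Il1rap are open.

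Over the rest of the IL-1, Toll-like receptor and NF-kB list, 11 of 45 tested genes besides Lbp and Il1r2 were lower and 2 higher at each time, with medians of -0.04 and -0.06. Of all genes, 15.8% were lower and 19.8% higher at 24 h, and 14.5% and 18.9% at 48 h. Some genes that NF-kB is known to induce were among the lower ones of the list. Those given here were picked after their values were seen, and other targets in the list are not described. Cxcl1, a neutrophil chemokine, fell from 3973 ± 1131 (SD) to 2479 ± 728 at 24 h (log2 fold change -0.69, adjusted p = 0.00476), and in DMSO it was lower at 48 h than at 24 h by -1.35. The chemokine Cxcl10 had -0.60 at both times, Nfkbia, the inhibitor of NF-kB and its target, -0.24 and -0.33, and Icam1 -0.37 and -0.42, all called. Cxcl10 exceeded the array median on 15 of 30 arrays. Nos2, also an NF-kB target, had -0.38 and 1.11 and was not called. The ligand genes Il1a, Il1b and Tnf exceeded the array median on 1, 0 and 0 of 30 arrays and were not tested.

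Socs3, the feedback inhibitor of gp130 signalling, had a low and scattered signal. In DMSO it was 441, 251, 243, 49.8 and 262 at 24 h and 352, 358, 198, 310 and 151 at 48 h. At 100 uM it was 295, 260, 361, 478 and 172 at 24 h and 327, 411, 354, 125 and 468 at 48 h, and at 3 uM it ranged from 336 to 457 and from 106 to 584. Every group overlapped its control. The log2 fold changes at 100 uM were 0.54 (95% interval -0.38 to 1.46) and 0.25 (-0.67 to 1.17), and at 3 uM 0.86 (-0.06 to 1.78) and 0.33 (-0.59 to 1.25). The intervals are the widest of the 10 genes, so a rise at 24 h as large as that of Il1r2 at 48 h lies within the one at 3 uM.

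Stat3, the transcription factor of the pathway, was not called at 100 uM against DMSO. Its signal at 24 h was 4390, 4059, 3964, 3482 and 3803 in DMSO, 4899, 4888, 5708, 3815 and 5001 at 3 uM, and 3212, 3321, 3724, 3506 and 3865 at 100 uM. Of the 3 uM wells, 4 of 5 were above all other wells at that time. At 48 h the wells ranged from 3492 to 3965 in DMSO, from 3379 to 3913 at 3 uM and from 3151 to 3927 at 100 uM, with no visible separation. The log2 fold change at 100 uM was -0.16 (95% interval -0.32 to 0.00) at 24 h and -0.06 (-0.23 to 0.10) at 48 h. The second Stat3 probe set gave -0.11 at 24 h and, with the other sign, 0.29 at 48 h (adjusted p = 0.681 and 0.182). Against 3 uM at 48 h the probe sets also differed in sign, with -0.07 and 0.34, neither called (adjusted p = 0.588 and 0.125).

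Stat3 was the 1 gene of the 10 called at 3 uM and 24 h, where 4.22% of all genes were called and 2.99% were higher. Its log2 fold change was 0.30 ± 0.081 (adjusted p = 0.0320). Replicates 1, 2 and 3 of that group carry the high beta-actin ratio. With replicates 4 and 5 alone the log2 fold change was 0.15 (adjusted p = 0.665), and with the ratio as a covariate 0.16 (adjusted p = 0.823). The second Stat3 probe set gave 0.28 (adjusted p = 0.328), and the call was also lost when replicate 2, 4 or 5 of DMSO or replicate 1, 2 or 3 of 3 uM was left out (adjusted p from 0.0613 to 0.170). Against 3 uM, the 100 uM wells were lower at 24 h by -0.46 (adjusted p = 2.51e-05), and the second probe set gave -0.39 (adjusted p = 0.0582). In that comparison of doses 4 of the 10 genes were lower and 0 higher, where 38.8% of all genes were called (19.1% lower and 19.8% higher), the others being Crp, C3 and Steap4.

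Of 26 other IL-6, gp130 and STAT3 genes tested, 3 were higher and 4 lower at 100 uM and 24 h, and 2 were higher and 4 lower at 48 h. These counts stand beside 35.7% and 33.4% of all genes called, and the difference was not tested. Their median was 0.05 and 0.01, and with each array centred on its median that at 48 h became -0.04. The receptor Il6r was 2072 ± 224 (SD) in DMSO and 1378 ± 243 at 100 uM at 24 h (log2 fold change -0.60, adjusted p = 4.99e-05), and 1828 ± 154 and 1371 ± 61 at 48 h (-0.41, adjusted p = 0.00387). Il6st, encoding gp130, had -0.29 (adjusted p = 0.00172) at 24 h and 0.00 at 48 h. Bcl6, a repressor that competes with STAT factors for DNA, had -0.99 and -0.56, both called. Ptpn2, a phosphatase of Janus kinases and STATs, had 0.21 and 0.28, Mcl1, a survival gene and STAT3 target, had 0.33 at 24 h, and Jak2 had 0.86 at 48 h, all called. Jak2 exceeded the array median on only 6 of 30 arrays. Among the C/EBP genes, Cebpa had -0.11 and -0.58 and Cebpd -0.17 and -0.53, both called at 48 h, whereas Cebpb had -0.11 and 0.08 with no call. The ligand genes Il6, Osm and Lif each exceeded the array median on 0 of 30 arrays and were not tested. At 3 uM and 24 h Jak1 was called in this list, at 0.32 (adjusted p = 0.00468), in the group with the high beta-actin ratio.

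Glucocorticoid receptor and target genes included more falls than rises. At 24 h 9 of 18 were lower and 1 higher (15.8% and 19.8% of all genes). At 48 h 7 were lower and 2 higher (14.5% and 18.9% of all genes). The list medians at 24 h and 48 h were -0.17 and -0.12. Nr3c1, the receptor itself, had -0.43 and -0.25 (adjusted p = 3.49e-06 and 0.00382). Tdo2 and Tat, which break down tryptophan and tyrosine, had -0.82 and -0.66 at 24 h and -0.47 and -0.41 at 48 h, all called, and Tsc22d3 had -0.35 and -0.33. Sgk1 rose, by 0.43 and 0.56.

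Hepatocyte markers had falls and no rises. At 100 uM 7 of 11 were lower and 0 higher at each time, with medians of -0.35 and -0.26. Among all genes 15.8% were lower and 19.8% higher at 24 h, and 14.5% and 18.9% at 48 h. The asialoglycoprotein receptor genes Asgr1 and Asgr2 had -0.35 and -0.43 at 24 h and -0.58 and -1.03 at 48 h. Apob, of the lipoproteins that the liver secretes, had -0.77 and -0.79. The summed signal of the 11 markers at 100 uM was 400646 to 493077 at 24 h and 372886 to 417119 at 48 h, the latter below the 436379 of the lowest DMSO well. The part of this shift in the falls of Crp, C3 and Steap4 was not tested. Markers of endothelial cells (2 tested) had no call, and those of stellate cells and fibroblasts (6 tested) had 1 rise at 48 h, Des at 0.58. Of cholangiocyte markers (2 tested), Epcam had 0.15 and -0.16, both called, and Krt19 had -1.49 at 48 h. Krt19 exceeded the array median on 5 of 30 arrays, the fewest the filter allows. Its highest group mean was 435 ± 86 (SD) in DMSO at 48 h, the group it was compared with.

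At 3 uM and 24 h with replicates 4 and 5 alone, the uncalled changes of Crp, Hp, Orm1, Lbp and C3 against DMSO took the other sign, that of Crp moving from -0.11 to 0.14 (adjusted p = 0.833). At 3 uM and 48 h none of the 10 genes was called by limma, 1 had an unadjusted p under 0.05 (A2m), and 0.0391% of all genes were called. For the change of the 3 uM effect between the times 0 of the 10 genes and 0% of all genes were called, and 1 of the 10, Stat3, had an unadjusted p under 0.05. Between the doses at 48 h, Il1r2 and Lbp were higher and Crp, C3 and Steap4 lower at 100 uM, 5 of 10 where 28.8% of all genes were called (16.2% higher and 12.6% lower). With time in DMSO, Lbp rose and A2m, C3 and Il1r2 fell, where 2.57% of all genes were higher and 1.91% lower.

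From lowest to highest group mean, Crp ran from 100 uM at 48 h and at 24 h, which overlapped each other, to a gap and then 3 uM and DMSO at 24 h and 3 uM and DMSO at 48 h, each of which overlapped the next. Steap4 had the same gap between both 100 uM groups and the other 4. For Il1r2 the order began with DMSO and 3 uM at 48 h, went on with DMSO, 3 uM and 100 uM at 24 h, and ended with 100 uM at 48 h, with an overlap between all neighbours. For Hp, neighbours in the order of the 6 groups all overlapped.

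Besides Hp and Orm1, 10 more pairs among the 45 had an adjusted permutation p under 0.05 for r after group means were removed, and 3 of them also for rho. C3 and Stat3 had r = 0.731 and rho = 0.725 (adjusted p = 0.000225 and 0.00045, 0.720 without the 2 arrays farthest from the median of C3). A2m and Il1r2 had r = 0.667 and rho = 0.634 (adjusted p = 0.0009 and 0.00292, 0.607 without the 2 farthest). Steap4 and Il1r2 had r = 0.647 and rho = 0.649 (adjusted p = 0.0009 and 0.00165, 0.646 without the 2 farthest), although their group means ran in opposite directions and r over all 30 arrays was -0.60. Within groups, wells with more Steap4 signal thus also had more Il1r2 signal, whereas 100 uM lowered the first and raised the second. Without 3 uM at 24 h replicates 1, 2 and 3 these r were 0.720, 0.639 and 0.748, and with run means also removed 0.731, 0.621 and 0.627. The permutations treat the 30 deviations as exchangeable and take no account of the 6 fitted means.

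The genes most like the others over 30 arrays are given with r and, after it, r of the deviations from group means. For Crp they were Car5a (0.956, 0.628), Dhrs4 (0.950, 0.690) and Aadac (0.944, 0.543), which are metabolic enzymes. For C3 they were Serping1 (0.955, 0.433), Serpinf2 (0.937, 0.618) and Cyp4f1 (0.936, 0.218), of which the first encodes the C1 inhibitor. For Il1r2 they were S100a6 (0.880, 0.559), Hamp (0.878, 0.645) and Hnrnpa1 (0.855, 0.399). For A2m they were Esm1 (0.822, 0.674), Enc1 (0.767, 0.637) and Ifitm3 (0.763, 0.586), and for Lbp Fads1 (0.814, 0.734), Chkb (0.801, 0.548) and Rhoc (0.801, 0.514). Stat3 was most like Eif4g1 (0.858, 0.627), Mapk14 (0.853, 0.660) and Sptan1 (0.849, 0.736). Socs3 had the weakest likeness, to Ankrd13b (0.653, 0.648), Il3ra (0.600, 0.601) and Wdr41 (0.589, 0.571).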

How the data were processed

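RNA of 30 cultures (6 groups of 5) was hybridised to a rat whole-genome array. The deposited values are intensity: per the submitters' processing notes the authors made them with MAS5, as a linear signal per probe set, and its version is not given in the sources used here. The 2% trimmed mean was 1500 on every array, so arrays had been scaled. Scaling makes all values relative to the rest of the array, and saturation of bright probe sets would shrink differences. The number of arrays limits the precision.

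Symbols came from the platform's annotation, updated to the current rat gene table: of 31099 probe sets, 20826 had 1 symbol, 436 several, 9780 none and 57 were controls. Signals were log2 transformed without a pseudocount. The test was limma's (version 3.58.1, R 4.3.3), with a group mean for each of the 6 groups, 24 residual degrees of freedom, eBayes with a trend, two-sided p-values and Benjamini-Hochberg adjustment over 10222 genes in each of the 9 comparisons. Intervals are 95% intervals of the log2 fold change. The wells carry no pairing, and their numbers follow the deposit's order. In a set simulated from the 100 uM and 24 h comparison over 10222 genes, with 200 changed, 77% of 1.5-fold and 95% of 2-fold changes were recovered with 11 false calls. In the data 3647 genes were called in that comparison, far more than the simulation changed. The recovery and false calls of the simulation therefore need not hold there.

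The genes, lists and rules were chosen with earlier results of these data known. Named besides the 10 genes are, of each list, up to 4 called genes by adjusted p at 100 uM at each time, or the 2 brightest where none passed, and the 3 genes most like each of the 10 by Pearson r. Any other gene was named after its values were seen. Alternatives changed the scaling, filter, floor, pseudocount, probe sets, variance model, arrays fitted, array weights, array runs, beta-actin covariate, thresholds and each array in turn. The correlations without 3 arrays and with run means removed were added after seeing the data. Figures were drawn with matplotlib 3.10.9.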

Additional observations from a re-analysis of the deposited data

Results flagged for a closer look

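Among the 60 sets of 5 wells (10 genes in 6 groups), 4 held a well far from the other 4, where chance flags about 1 in 20 sets. The gap to the nearest well is given as a share of the group's range, both on the log2 scale, beside linear signals. On the linear scale the gaps of Socs3 would be smaller. Crp in replicate 4 of 3 uM at 24 h was 24939 against 15172 to 17478 in the other wells (gap 0.715). C3 in replicate 4 of 100 uM at 48 h was 25915 against 21031 to 22267 (gap 0.727), still below every DMSO well. Socs3 was 49.8 against 243 to 441 in replicate 4 of DMSO at 24 h (gap 0.727) and 125 against 327 to 468 in replicate 4 of 100 uM at 48 h (gap 0.730).

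The effect of 100 uM differed between the times for Crp, by -0.74 on the log2 scale, and for Il1r2, by 0.98, both called by the interaction term.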

How the results depend on the processing

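No result for the 10 genes changed direction while called. The falls of Crp and Steap4 at 100 uM kept their call under every alternative at both times, and that of C3 did so except that at 24 h it did not reach 1.5-fold.

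Counts of the 10 genes moved by 1 to 3 under single settings. Higher at 100 uM against DMSO were 2 at 48 h with quantile normalization, with array weights or with only the groups compared, and 0 at 24 h with a threshold of 0.01 or of 1.5-fold. At 3 uM and 24 h, 0 were higher with the mean of all probe sets, the beta-actin covariate, replicates 4 and 5 alone, only the groups compared, 0.01 or 1.5-fold, and array weights gave 2 higher and 2 lower. For 100 uM against 3 uM, array weights gave 3 higher at 24 h, 1.5-fold gave 1 lower at 24 h and 1 higher at 48 h, and median centring or 0.01 gave 1 higher at 48 h. With time in DMSO, 0 were higher with median centring, no filter, the mean of probe sets, eBayes without trend, 0.01 or 1.5-fold, 2 were higher with array weights, and 1.5-fold left 1 lower. The fall of C3 there was lost with quantile normalization, median centring, 0.01 or 1.5-fold. A2m was called lower for 100 uM against 3 uM at 24 h with quantile normalization or replicates 4 and 5 alone. The change of the 100 uM effect had 0 higher and 0 lower with median centring or 0.01, and 0 higher with eBayes without trend. Array weights gave 1 higher and 1 lower for the change of the 3 uM effect. The cause was not tested.

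Leaving out each array in turn gave 0 to 1 higher for 100 uM against DMSO at 24 h, 0 to 2 higher and 0 to 2 lower for 3 uM at 24 h (2 and 2 without replicate 5 of 3 uM), 0 to 2 higher for 100 uM against 3 uM at 24 h (2 without the same array), 1 to 2 higher at 48 h, 0 to 2 higher and 2 to 3 lower for DMSO over time, and 0 to 1 higher for the change of the 100 uM effect. No paired analysis was possible because the labels give no link between wells of different groups.

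With each array centred on its median, the share of all calls that were higher moved from 56.6% to 44.6% at 100 uM and 48 h, from 71.0% to 90.7% at 3 uM and 24 h, and from 50.9% to 34.5% for 100 uM against 3 uM at 24 h. Socs3 exceeded its array's median on 8 of 30 arrays, which limits what its values can show.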
